A study of Mus musculus with 48 samples.

Results

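The myostatin and activin pathway is described here through 9 genes measured in mouse tibialis anterior muscle: the ligand Mstn, the receptors Acvr2a, Acvr2b and Acvr1b, the secreted antagonists Fst and Fstl3, and the intracellular genes Smad2, Smad3 and Smad7. The genes were chosen by name, and each name matched 1 of the 56748 genes in the deposited table. All 9 had at least 1 read in all 48 libraries and passed the filter on low counts, which kept 15637 genes. The study asked whether an orthotopic pancreatic tumor changes the muscle transcriptome over the day and whether this depends on the transcription factor FoxP1 in muscle.

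Muscles came from male mice aged 39 to 55 weeks that carried KPC murine pancreatic cancer cells injected into the pancreas (KPC) or had received saline there (control). The knockout mice (FoxP1SkmKO) were homozygous FoxP1fl/fl and carried ACTA1-Cre, which is active in skeletal muscle fibers, so other cells of the muscle keep FoxP1. The comparison mice (WT) are given as C57BL/6J in the sample labels and as FoxP1fl/fl without Cre in the series description, and these cannot be told apart here. All mice had been moved to constant darkness, and muscles were taken every 4 h from circadian time (CT) 18 to CT38, from 2 mice per genotype, condition and time. This gave 24 groups of 2 mice and 4 arms of 12 mice. No time was sampled on a second cycle.

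Myostatin is a secreted ligand of the TGF-beta family, made by muscle fibers, that limits muscle mass. Myostatin and activins bind a type II receptor (ACVR2A or ACVR2B), which recruits a type I receptor such as ACVR1B (ALK4), and the pair phosphorylates SMAD2 and SMAD3, which enter the nucleus with SMAD4. Follistatin (Fst) and follistatin-like 3 (Fstl3) bind the ligands and block them, SMAD7 inhibits the active receptor, and blockade of type II receptors is known to spare muscle mass in tumor-bearing mice.

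Of the 9 genes, 3 carried the E-box letters CACGTG in the 250 bases before the annotated start. The clock activators CLOCK and BMAL1 bind this sequence. The share of E-box windows among genes with a 24 h rhythm was not computed. A link of these letters to rhythm was not tested. The windows of Acvr1b and Smad3 are shown with the E-box in capitals, beside that of Mstn, which lacks these letters. They were read 5′ to 3′ from GRCm39 at the GENCODE vM39 canonical start, for Acvr1b at chr15:101071671-101071920 on the plus strand, for Smad3 at chr9:63665477-63665726 on the minus strand and for Mstn at chr1:53100549-53100798 on the plus strand.
Acvr1b: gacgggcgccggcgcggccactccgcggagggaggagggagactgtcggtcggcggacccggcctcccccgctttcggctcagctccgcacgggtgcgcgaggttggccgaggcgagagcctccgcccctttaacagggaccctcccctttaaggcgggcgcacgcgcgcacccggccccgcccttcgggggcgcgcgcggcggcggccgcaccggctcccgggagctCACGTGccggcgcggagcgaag
Smad3: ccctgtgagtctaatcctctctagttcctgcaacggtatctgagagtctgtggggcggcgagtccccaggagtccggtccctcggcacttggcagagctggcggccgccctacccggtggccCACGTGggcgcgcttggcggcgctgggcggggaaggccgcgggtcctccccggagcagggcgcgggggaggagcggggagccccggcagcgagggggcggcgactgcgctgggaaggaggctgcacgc
Mstn: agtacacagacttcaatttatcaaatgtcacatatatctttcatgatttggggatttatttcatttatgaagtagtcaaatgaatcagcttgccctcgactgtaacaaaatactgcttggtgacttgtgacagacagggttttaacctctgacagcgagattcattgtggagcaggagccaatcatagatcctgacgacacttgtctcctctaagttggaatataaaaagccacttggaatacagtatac
The E-box began 22 bases before the start of Acvr1b and 128 bases before that of Smad3.

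Among the 9 windows, searched on both strands, 3 held CACGTG (Acvr1b, Smad3 and Smad7, where it began 116 bases before the start), against 6.26% of 21770 windows of the same length before protein-coding genes. None of the 9 held the D-box letters TTANGTAA (2.08% of all windows), the letters TAGGTCA of the REV-ERB and ROR element (2.17%) or the forkhead letters TGTTTAC (2.72%). The short SMAD letters CAGAC stood in 5 of the 9 windows and in 41.3% of all windows. A match describes letters in the window and was not tested as a binding site.

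Levels were compared between genes in FPKM (the deposited fragments per kilobase of gene, scaled to library size), which corrects for gene length. Acvr1b had the highest mean level, 25.6 ± 5.74 FPKM (SD, n = 48), followed by Smad3 at 22.3 ± 3.48 FPKM and Mstn at 11.2 ± 2.16 FPKM. Acvr1b was above Smad3 in 30 of 48 libraries, so these neighbors overlapped, whereas Smad3 was above Mstn in 48 of 48 with no overlap of their ranges. The middle of the order was held by Acvr2a at 4.98 ± 0.552 FPKM, Smad7 at 4.33 ± 0.992 FPKM and Acvr2b at 2.31 ± 0.569 FPKM. Acvr2a exceeded Smad7 in 36 libraries and Smad7 exceeded Acvr2b in 46, and in both cases the ranges overlapped. Smad2 followed at 1.51 ± 0.177 FPKM, and the antagonists Fst (0.298 ± 0.118 FPKM) and Fstl3 (0.218 ± 0.116 FPKM) were lowest.

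The antagonists were measured with few reads, a median of 22 reads per library for Fst and 8 for Fstl3, against 527 for Mstn and 1951 for Acvr1b. Their SDs reached 39.4% and 53.3% of the mean, against 11.1% for Acvr2a and 11.8% for Smad2. Within the receptor pairs, the level of Acvr2a was a median of 2.15 times that of Acvr2b (range 1.33 to 10.4 over 48 libraries). Exons of both overlap exons of genes on the opposite strand, and the effect of this on their ratio was not tested. Within the receptor SMADs, Smad3 was a median of 14.6 times Smad2 (range 10.1 to 23.7), so that Smad3 transcripts were the more abundant in every library.

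**Figure D1:**
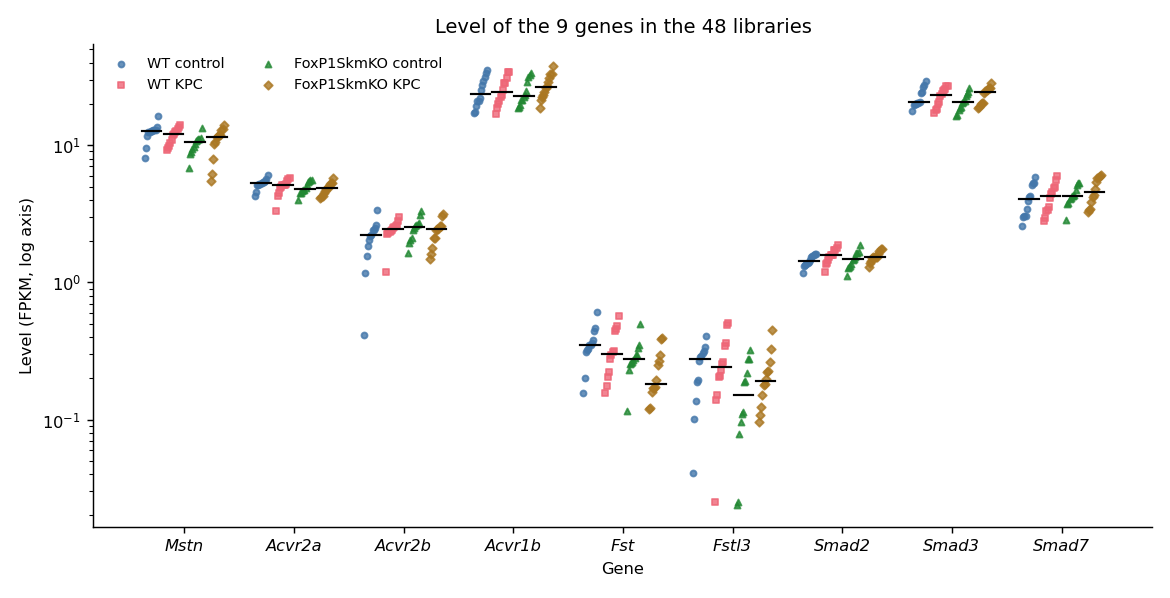
Level of each gene in the 48 libraries, in FPKM on a log axis, with the 4 arms of 12 mice side by side and black bars at the arm medians. The 4 arms overlap for every gene, and the lowest Acvr2b value, 0.413 FPKM, is a WT control library.

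The muscle label fitted its markers, with the fast-fiber gene Myh4 at 7512 to 11090 FPKM and the slow-fiber gene Myh7 at 0.238 to 4.76 FPKM. Library totals ran from 14480867 to 20787784 reads. Foxp1, the deleted gene, did not separate the genotypes: it was 0.630 ± 0.140 FPKM in WT control, 0.629 ± 0.102 in WT KPC, 0.578 ± 0.0682 in FoxP1SkmKO control and 0.544 ± 0.0744 in FoxP1SkmKO KPC mice (SD, n = 12 each). Foxp1 was lower by 0.11 on the log2 scale in FoxP1SkmKO control mice (adjusted p = 0.459) and by 0.20 in FoxP1SkmKO KPC mice (adjusted p = 0.246). The part of the gene that is deleted, and the share of reads from cells without Cre, were not measured, so genotype rests on the labels. In whole muscle, fewer cells of a type and less RNA per cell cannot be told apart.

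The first question was whether these genes follow the time of day. Under a 24 h sinusoid fitted in edgeR to all 48 libraries with a level for each arm, 4 of the 9 genes passed an adjusted p of 0.05: Acvr1b, Smad7, Smad3 and Mstn. The fit gives all arms the same phase and amplitude, so it does not test the rhythm within an arm. The same test called 34.9% of the 15637 genes, so a call was common in this muscle. On the 24 h cycle the fitted peaks were at hour 12.2 for Mstn, 12.9 for Acvr1b, 17.1 for Smad7 and 19.9 for Smad3, and differences between these phases were not tested.

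Acvr1b, a type I receptor of activins and myostatin, had the clearest rhythm of the 9 genes. Over the 8 mice at each time, its lowest, median and highest levels were 23.1, 25.7 and 29.1 FPKM at CT18, 18.6, 21.2 and 22.6 FPKM at CT22, and 16.8, 19.0 and 23.2 FPKM at CT26. They were 19.3, 21.8 and 27.0 FPKM at CT30, 28.6, 31.9 and 37.8 FPKM at CT34, and 28.7, 33.3 and 34.2 FPKM at CT38. Every library at CT34 and CT38 was above every library at CT22, CT26 and CT30. The fitted amplitude was 0.41 ± 0.026 (SE) on the log2 scale, a peak 1.77 times the trough, with the peak at CT36.9 (edgeR adjusted p = 1.13e-17). By p-value Acvr1b ranked 22nd of 15637 genes, and 13.6% of the genes called had a larger amplitude.

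Smad7, the inhibitory SMAD, was highest at CT38, where its lowest, median and highest levels were 5.13, 5.44 and 6.08 FPKM. At CT30 they were 2.86, 3.17 and 4.22 FPKM, so these times did not overlap. The amplitude was 0.35 ± 0.043 on the log2 scale, with a fitted peak at CT41.1, beyond the last time sampled (edgeR adjusted p = 4.80e-08).

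Smad3, the more abundant receptor SMAD, had a smaller amplitude. Its lowest, median and highest levels were 20.8, 25.6 and 29.6 FPKM at CT18 and 16.5, 18.2 and 25.5 FPKM at CT34. These ranges overlapped through a FoxP1SkmKO KPC library at CT34 with 25.5 FPKM. The amplitude was 0.21 ± 0.033 on the log2 scale, with the peak at CT19.9 (edgeR adjusted p = 1.08e-05). Smad2 had an amplitude of 0.085 ± 0.033 and did not pass (adjusted p = 0.0999), except without replicate 2 of WT KPC CT38 (0.10, adjusted p = 0.0327).

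Mstn was lowest at CT26, with 5.51, 9.65 and 11.1 FPKM as the lowest, median and highest of 8 mice, and highest at CT34, with 11.1, 12.8 and 16.3 FPKM. The fitted amplitude was 0.16 ± 0.051 on the log2 scale, with the peak at CT36.2 (edgeR adjusted p = 0.037). This call was lost without the 2 WT control CT26 libraries (amplitude 0.13, adjusted p = 0.111). Of the 48 libraries left out singly, 7 also ended it: each WT control CT26 library (adjusted p = 0.065 and 0.0591), replicate 1 of WT control CT34 (0.0623), of WT KPC CT22 (0.0526) and of FoxP1SkmKO KPC CT34 (0.0597), and each FoxP1SkmKO KPC CT26 library (0.0608 and 0.0635). Acvr2a, Acvr2b, Fst and Fstl3 did not pass, with adjusted p between 0.367 and 0.763. Without the 2 WT control CT26 libraries Acvr2b did pass, with an amplitude of 0.19 (adjusted p = 0.0187) in place of 0.12.

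**Figure D2:**
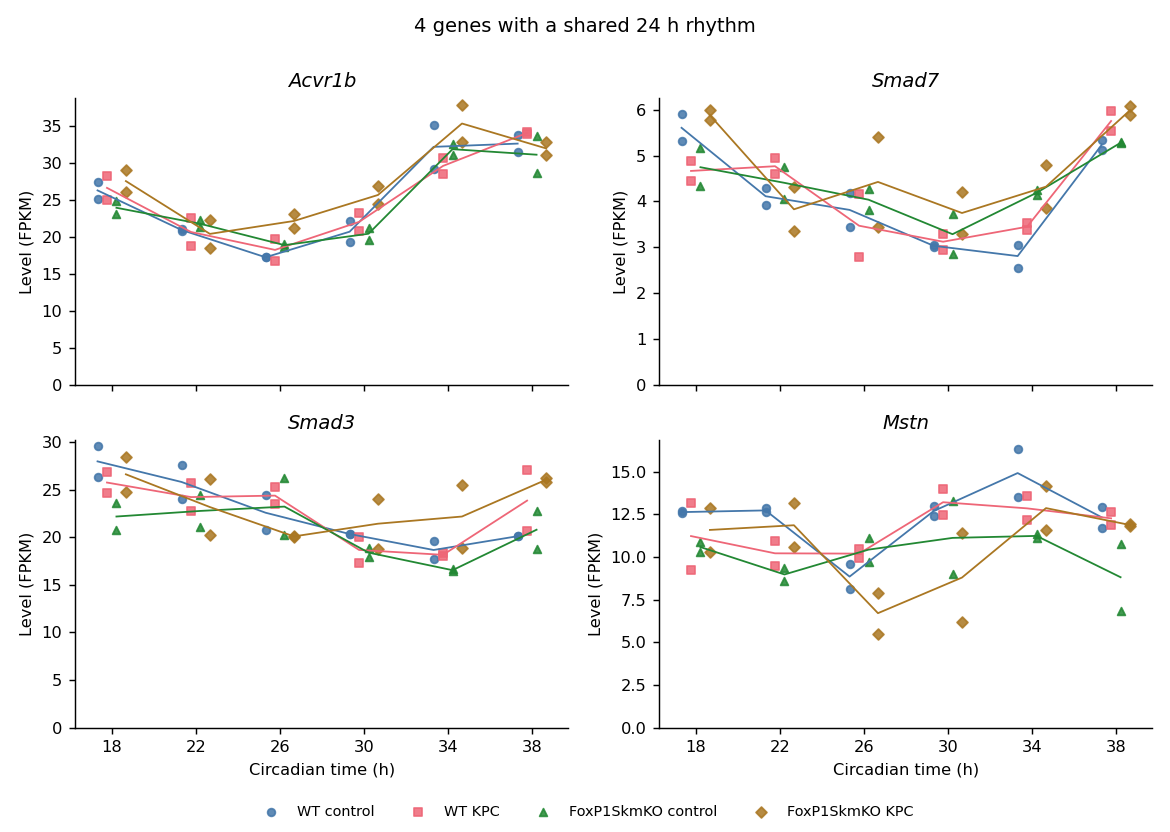
Level in FPKM against circadian time in hours for the 4 genes with a shared 24 h rhythm, 1 point per library, lines through the means of 2 mice in each arm. Acvr1b is higher at CT34 and CT38 than at CT22, CT26 and CT30 in all 4 arms, every Smad7 value at CT38 is at least 5.13 FPKM, and the lowest Mstn value, 5.51 FPKM, is a FoxP1SkmKO KPC library at CT26.

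Among the 24 group means, the genes whose pattern was most like that of Acvr1b, by Pearson r of log2 CPM, were Mylk4 (r = 0.95), Maco1 (r = 0.93) and Nrip1 (r = 0.93), out of 12631 genes compared. The closest to Smad7 were Banp (0.89), Plekhh3 (0.87) and Amotl2 (0.86), the closest to Smad3 were Tle1 (0.83), Irf2bp2 (0.82) and Ucn2 (0.82), and the closest to Mstn were Kpna1 (0.87), Kpna4 (0.85) and Tmem64 (0.84). These values describe shared shape over the same mice and times.

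Each arm was then fitted alone in FPKM by an F test of the sinusoid over 12 libraries. A p under 0.01 counted as a rhythm. Acvr1b passed in all 4 arms, with amplitudes of 8.09 ± 0.931 FPKM in WT control, 7.63 ± 0.758 in WT KPC, 6.62 ± 1.06 in FoxP1SkmKO control and 7.15 ± 0.958 in FoxP1SkmKO KPC mice (SE). Its peaks lay between CT35.9 and CT37.4. The background rate of calls at this threshold was 4.92% of 27209 genes in WT control and 4.22% of 27396 in WT KPC mice. It was 4.07% of 28711 genes in FoxP1SkmKO control and 2.63% of 28430 in FoxP1SkmKO KPC mice. The tests on FPKM used all genes whose FPKM varied, with no filter on low counts. Smad7 passed in WT control (p = 0.00154), WT KPC (p = 0.00613) and FoxP1SkmKO control mice (p = 0.00771), and had p = 0.037 in FoxP1SkmKO KPC mice (n = 12 each). The last 2 of these passes were lost with a replicate block, at p = 0.0108 and p = 0.0132 (n = 12 each). The pass in WT KPC mice was also lost without any 1 of 7 libraries, both of CT22, both of CT30, replicate 2 of CT26 and replicate 1 of CT34 and CT38, with p up to 0.0199 (n = 11). The pass in FoxP1SkmKO control mice was lost on log2 FPKM with a pseudocount of 1 (p = 0.0101, n = 12) or 0.1 (p = 0.011, n = 12), and without any 1 of 9, both of CT30, CT34 and CT38 and replicate 1 of CT18, CT22 and CT26, with p up to 0.023 (n = 11). In FoxP1SkmKO KPC mice Smad7 passed without replicate 2 of CT26 (p = 0.00183, n = 11). On FPKM Smad3 passed in WT control mice (p = 0.00242), and its p-values in the other arms were 0.0118, 0.0272 and 0.0477 (n = 12 each). In WT KPC mice Smad3 passed on log2 FPKM with a pseudocount of 1 (p = 0.00931, n = 12) or 0.1 (p = 0.00924, n = 12), without replicate 2 of CT22 (p = 0.00656, n = 11) or of CT38 (p = 0.00169, n = 11), and in FoxP1SkmKO control mice without replicate 1 of CT26 (p = 0.00941, n = 11). Mstn passed in no arm, with p = 0.129 in WT control, 0.0409 in WT KPC, 0.493 in FoxP1SkmKO control and 0.0833 in FoxP1SkmKO KPC mice (n = 12 each). Its fitted peaks on the 24 h cycle were at hours 12.4, 10.1, 6.8 and 14.8 in the same order. In WT KPC mice Mstn passed without replicate 1 of CT18 (p = 0.00543, n = 11). Passing in 1 arm and not in another does not show that the arms differ. After adjustment over all genes, Acvr1b passed in WT control (adjusted p = 0.0184) and WT KPC mice (adjusted p = 0.0186), and no other member passed in any arm.

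The difference in rhythm between KPC and control mice was therefore tested within each genotype. In WT mice none of the 9 genes had p under 0.05 (5.07% of 29593 genes did), with p from 0.212 to 0.900. In FoxP1SkmKO mice only Smad3 did (p = 0.0382, adjusted p = 0.757, n = 24), against 5.09% of 31244 genes. On the 24 h cycle its fitted peak was at hour 21.5 in FoxP1SkmKO control and 16.2 in FoxP1SkmKO KPC mice, 5.3 h apart. A test of any difference among the 4 arms in edgeR, added after the data were seen, gave Smad3 an adjusted p of 0.524 and called 1 of 15637 genes, none of them a member.

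The second question was whether a KPC tumor changes these genes. Averaged over the 6 times, none of the 9 genes passed in WT mice, where 1.79% of genes did, and none passed in FoxP1SkmKO mice, where 0.428% did (edgeR quasi-likelihood test). At an unadjusted p under 0.05 there were 1 and 2 members, against 15.2% and 12.4% of all genes, and DESeq2 called 0 in both genotypes. The median log2 change over the 9 genes was 0.02 in WT and 0.08 in FoxP1SkmKO mice, against 0.00 over all genes in both.

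Mstn was 12.4 ± 2.01 FPKM in WT control and 11.7 ± 1.61 FPKM in WT KPC mice (SD, n = 12 each). The arms overlapped, from 8.11, 12.6 and 16.3 FPKM (lowest, median, highest) to 9.26, 12.0 and 13.96 FPKM. The log2 difference was -0.08 with a 95% interval of -0.25 to 0.10 (adjusted p = 0.735). In FoxP1SkmKO mice the difference was 0.03 with an interval of -0.15 to 0.20 (adjusted p = 0.935). This difference turned negative without CT22, without CT34 and without CT38.

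Of the receptors, Acvr2b had the largest difference in WT mice, 0.31 ± 0.13 (SE) on the log2 scale (adjusted p = 0.238). Without CT26 it was 0.06, and with no filter on low counts Acvr2b passed (adjusted p = 0.00623). In FoxP1SkmKO mice Acvr1b differed by 0.14 ± 0.044 (adjusted p = 0.123). Pooled over the 6 times of this rhythmic gene, its KPC levels, 18.6, 26.5 and 37.8 FPKM, overlapped the control levels of 18.8, 22.7 and 33.7 FPKM. At CT18, CT26, CT30 and CT34 both KPC mice were above both control mice, and at CT22 and CT38 they overlapped. The mean of 2 mice was higher in KPC at 5 of 6 times, and Acvr1b passed when CT22 was left out (0.19, adjusted p = 0.0445). The log2 difference for Acvr1b in WT mice was 0.02, with an interval of -0.07 to 0.11.

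Of the SMADs, Smad3 in FoxP1SkmKO mice differed by 0.18 ± 0.060 on the log2 scale (adjusted p = 0.176), from a control range of 16.5 to 26.2 FPKM to a KPC range of 18.8 to 28.5 FPKM. At CT18, CT34 and CT38 both KPC mice were above both control mice, and at CT26 both were below. Smad3 passed with no filter on low counts (adjusted p = 0.00367). In WT mice its difference was -0.0039 with an interval of -0.13 to 0.12. The antagonists gave wide intervals: Fstl3 in FoxP1SkmKO mice differed by 0.68, with an interval of -0.01 to 1.37, and Fst by -0.36, with an interval of -0.82 to 0.09.

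The KPC difference itself was compared between genotypes. No member passed, and no gene of the 15637 did (0%), with 1020 genes at an unadjusted p under 0.05 and 0 by DESeq2. The lowest p-values among the members were those of Acvr2b (0.40, adjusted p = 0.764) and Smad3 (-0.18, adjusted p = 0.764), and the largest difference was that of Fstl3 (-0.63, interval -1.54 to 0.29, adjusted p = 0.847).

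**Figure D3:**
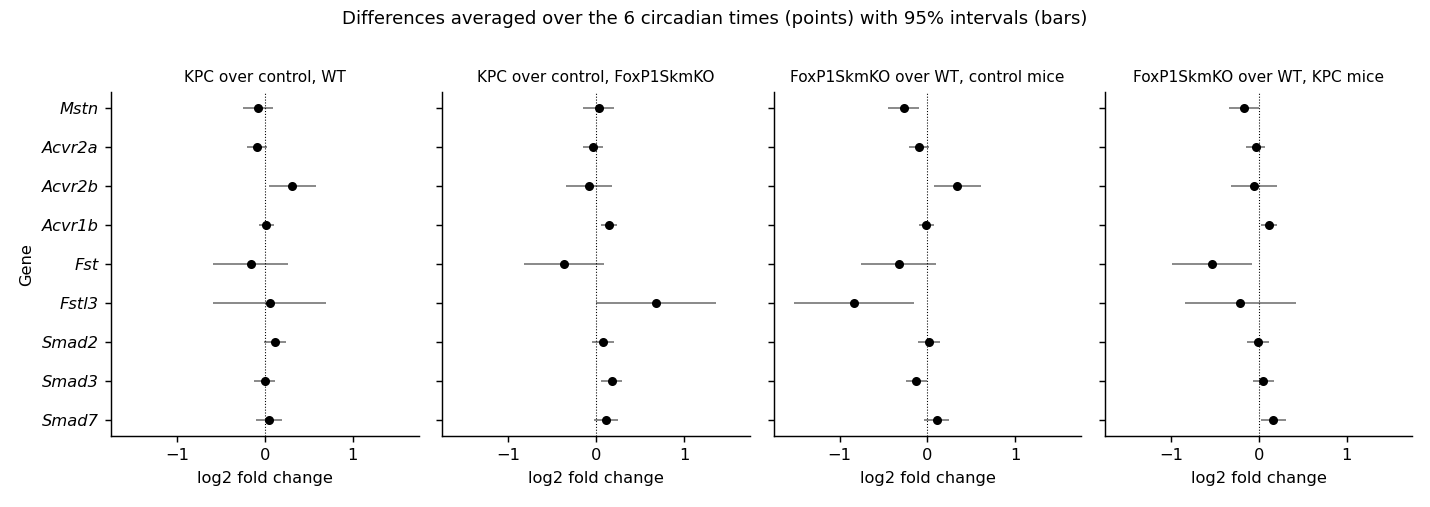
Log2 fold change of each gene averaged over the 6 circadian times, with 95% intervals as bars, for KPC over control in each genotype and FoxP1SkmKO over WT in each condition. No difference passed an adjusted p of 0.05, and the widest intervals are those of Fst and Fstl3.

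The third question was whether the genotypes differ. These comparisons use the same 48 libraries as the KPC comparisons, and every arm enters comparisons of both kinds, so the results are not independent. In control mice none of the 9 genes passed, where 3.44% of all genes did, and in KPC mice none passed, where 0.32% did. At an unadjusted p under 0.05 there were 4 and 3 members, against 17.2% and 10.8% of all genes, and DESeq2 called 1 and 0.

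Mstn came nearest to a call. In WT control mice the 2 values at each time were 12.7 and 12.6 FPKM at CT18, 12.9 and 12.6 at CT22, 8.11 and 9.59 at CT26, 12.4 and 13.0 at CT30, 16.3 and 13.5 at CT34, and 11.7 and 12.9 at CT38. In FoxP1SkmKO control mice they were 10.9 and 10.3 FPKM, 8.57 and 9.38, 11.1 and 9.72, 13.3 and 8.98, 11.3 and 11.1, and 10.8 and 6.84 at the same times. At CT18, CT22, CT34 and CT38 both FoxP1SkmKO mice were below both WT mice, and at CT26 both were above. Over the arms the levels were 8.11, 12.6 and 16.3 FPKM (lowest, median, highest) in WT control and 6.84, 10.5 and 13.3 FPKM in FoxP1SkmKO control mice. The means of 2 mice were lower in FoxP1SkmKO at 5 of 6 times, all but CT26, but the ranges overlapped. The log2 difference was -0.27 ± 0.085 (SE), with an interval of -0.44 to -0.10 (adjusted p = 0.071). It passed in DESeq2 (adjusted p = 0.036), in a fit of the control mice alone (0.0229), with a replicate block (0.0391), with no filter on low counts (2.70e-05) and without CT26 (0.0243). It also passed without replicate 1 of FoxP1SkmKO control CT30 (-0.33, adjusted p = 0.0278) and without replicate 1 of FoxP1SkmKO control CT38 (-0.33, adjusted p = 0.0173). Over all alternatives its adjusted p ran from 2.70e-05 to 0.235, so the call depends on the model. In KPC mice the difference was -0.17 ± 0.086 (adjusted p = 0.492).

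Acvr2b was higher in FoxP1SkmKO control mice by 0.34 ± 0.13 on the log2 scale (adjusted p = 0.157), and passed with no filter on low counts (adjusted p = 0.00147). The difference was 0.03 without CT26, and without the WT control CT26 library at 1.17 FPKM it was 0.49 and passed (adjusted p = 0.0269). Fstl3 differed by -0.84 ± 0.33 in control mice (adjusted p = 0.173), on counts of 2 to 16 reads per library in WT control and 1 to 12 in FoxP1SkmKO control mice. In KPC mice Fst differed by -0.53 ± 0.22 (adjusted p = 0.370), with medians of 0.302 FPKM in WT and 0.183 FPKM in FoxP1SkmKO, and Smad7 by 0.17 ± 0.070 (adjusted p = 0.369). None of these passed with all 48 libraries and the filter on low counts.

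The KPC difference was also tested at each time, between groups of 2 mice, with the spread shared over all 24 groups. Of the 108 tests of the 9 genes over 6 times and 2 genotypes, 1 passed, that of Acvr2b at CT26 in WT mice. At CT26 in WT mice 7.17% of genes passed, against 0.00872% of the gene tests over the other 11 combinations of genotype and time. At those other combinations the lowest adjusted p of a member was 0.327, for Acvr1b at CT30 in FoxP1SkmKO mice (0.34 on the log2 scale).

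Mstn at CT26 in FoxP1SkmKO mice was 11.1 and 9.72 FPKM in control and 7.90 and 5.51 FPKM in KPC mice. Both KPC mice were below both control mice, and the log2 difference was -0.65 (adjusted p = 0.365). In WT mice at CT26 Mstn was 8.11 and 9.59 FPKM in control and 9.94 and 10.5 FPKM in KPC mice. Fstl3 at CT30 in FoxP1SkmKO mice had the largest difference of any member, 2.45 on the log2 scale, on 1 read in each of the 2 control libraries (adjusted p = 0.51).

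**Figure D4:**
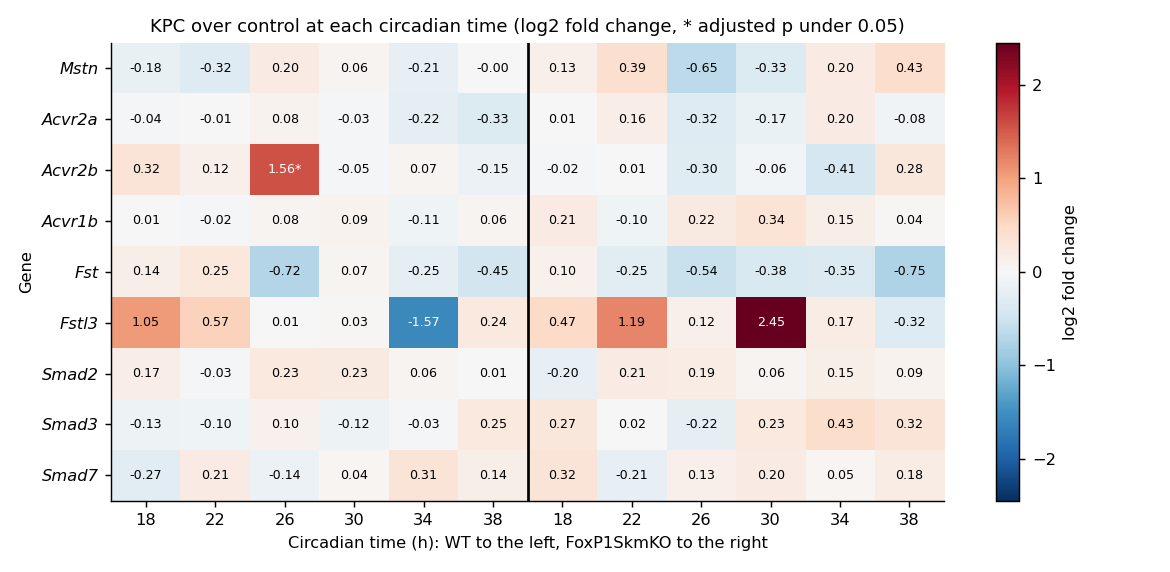
Log2 fold change of KPC over control for each gene at each circadian time, in color and as numbers, in WT (left) and FoxP1SkmKO mice (right), with an asterisk where the adjusted p is under 0.05. The asterisk stands at Acvr2b at CT26 in WT, 1.56, and the largest values without one are those of Fstl3, which rest on counts as low as 1 read.

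Acvr2b, a type II receptor that binds myostatin and activins, was 0.413 and 1.17 FPKM in the 2 WT control mice at CT26 (30 and 77 reads), and 2.24 and 2.41 FPKM in the 2 WT KPC mice at that time (130 and 138 reads). The KPC values lay within the 1.56 to 3.38 FPKM of the other 10 WT control libraries, and the 2 control libraries at CT26 lay below that range. The log2 difference was 1.56 ± 0.36 (SE), with an interval of 0.83 to 2.29 (edgeR adjusted p = 0.00578). Without the control library at 0.413 FPKM the difference was 0.96 and the call was lost (adjusted p = 0.308). In FoxP1SkmKO mice at CT26 Acvr2b was 2.67 and 3.08 FPKM in control and 2.09 and 2.58 FPKM in KPC mice, a difference of -0.30 (adjusted p = 0.816). The difference between the genotypes, added after the data were seen, was 1.86 ± 0.47 with an adjusted p of 0.067 in edgeR, where 0.345% of genes passed, and of 0.00782 in DESeq2.

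The same libraries stood apart in another measure. Over 11392 genes, the deviation of a library from the mean of the 8 libraries of its time was correlated with gene length, with Spearman rho of -0.48 and -0.39 in the 2 WT control CT26 libraries and -0.39 in 1 WT KPC library at CT38, against -0.26 to 0.30 in the other 45. These 3 libraries also held the 3 lowest Acvr2b levels of the 48, at 0.413, 1.17 and 1.19 FPKM, and the next was 1.47 FPKM. When the trend on gene length was removed from every library before the same fit, the CT26 difference of Acvr2b was 1.59 (adjusted p = 0.012), and the calls over the 6 times in WT fell from 1126 to 412. The deposited length of Acvr2b is 3928 bases, and the part of other library properties in its CT26 values was not tested.

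**Figure D5:**
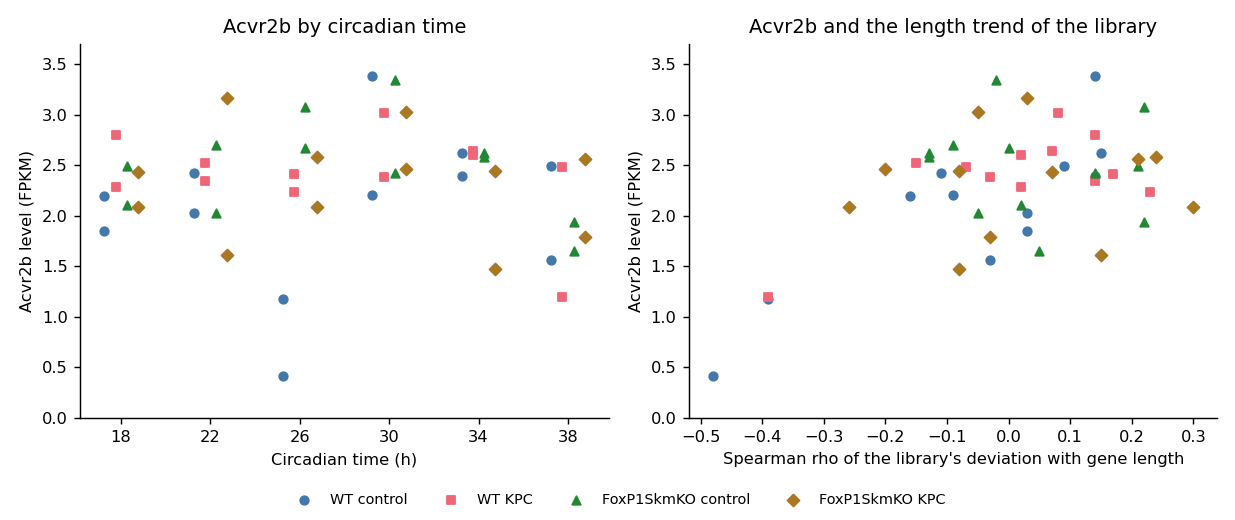
Left, Acvr2b level in FPKM at each circadian time, 1 point per library. Right, the same levels against the Spearman rho of the library's deviation with gene length, over 11392 genes. The 3 lowest Acvr2b values, 0.413, 1.17 and 1.19 FPKM, are the 3 libraries with the most negative rho.

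The wider pathway was read from 90 listed genes in 6 groups (ligands, receptors, extracellular regulators, SMADs and their regulators, the BMP arm, and atrophy and growth targets), of which 80, the members included, were tested. Averaged over the times, 2 of the 80 passed for KPC in WT, where 1.79% of all genes did, and 1 in FoxP1SkmKO mice, where 0.428% did. Ltbp4, which encodes a binding protein of latent TGF-beta, fell in both, by 0.33 (adjusted p = 0.00574) and by 0.35 (adjusted p = 0.00763) on the log2 scale. Bambi, a pseudoreceptor that dampens TGF-beta signaling, fell by 0.57 in WT mice (adjusted p = 0.0213). The median log2 change over the 80 genes was 0.0020 in WT and -0.00092 in FoxP1SkmKO mice, against 0.00 over all genes in both.

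At CT26 in WT mice, where the 2 control libraries stood apart, 5 of the 80 listed genes passed. This share was no higher than the 7.17% of all genes that passed there. Tgfbr2, the type II receptor of TGF-beta (0.43, adjusted p = 0.00541), Mtor (0.51, adjusted p = 0.00174) and Foxo3 (0.52, adjusted p = 0.0248) rose beside Acvr2b. Nog, a BMP antagonist, fell by 0.75 (adjusted p = 0.0409).

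Between genotypes, 5 of the 80 passed in control mice, where 3.44% of all genes did. Gdf11, the ligand closest to myostatin, fell by 0.37 on the log2 scale in FoxP1SkmKO mice (adjusted p = 0.0339). Cdkn1a (0.79, adjusted p = 0.0219), Id1 (0.48, adjusted p = 0.0265) and Ltbp3 (0.14, adjusted p = 0.0422) rose. Cdkn1a encodes the cell cycle inhibitor p21 and Id1 a BMP-responsive inhibitor of DNA binding. In KPC mice, where 0.32% of all genes passed, 2 of the 80 rose, Inha (0.65, adjusted p = 0.00574), the inhibin alpha subunit, and Ltbp3 (0.18, adjusted p = 0.0273).

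The shared 24 h rhythm was called in 47 of the 80 listed genes, against 34.9% of all genes. By group it was called in 5 of 8 ligands, 4 of 6 receptors, 8 of 14 extracellular regulators, 7 of 15 SMADs and regulators, 15 of 25 genes of the BMP arm and 8 of 12 atrophy and growth targets. Foxo1, a transcription factor of muscle atrophy, had an amplitude of 0.37 on the log2 scale with a peak at CT38.9 (adjusted p = 2.84e-09), and Skil, a SMAD corepressor, one of 0.31 with a peak at CT39.4 (adjusted p = 1.14e-06). The ubiquitin ligase genes Fbxo32 and Trim63 had amplitudes of 0.26 and 0.12 with peaks at CT26.8 and CT27.6.

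Other listed genes that passed are given with their log2 amplitude and the time of their fitted peak. Of the other ligands, Gdf11 (amplitude 0.20, CT30.1), Inha (amplitude 0.23, CT21.2), Tgfb1 (amplitude 0.17, CT24.1) and Tgfb2 (amplitude 0.14, CT27.5) passed. Of the other receptors and co-receptors, Tgfbr1 (amplitude 0.15, CT39.1), Tgfbr2 (amplitude 0.15, CT18.2) and Tgfbr3 (amplitude 0.12, CT38.5) passed. Among extracellular regulators, Fstl1 (amplitude 0.20, CT21.3), Dcn (amplitude 0.37, CT19.8), Furin (amplitude 0.14, CT22.7), Pcsk5 (amplitude 0.32, CT24.5) and Pcsk6 (amplitude 0.46, CT19.4) passed. So did Bmp1 (amplitude 0.23, CT21.6), Ltbp3 (amplitude 0.11, CT21.1) and Ltbp4 (amplitude 0.12, CT20.4). Among regulators of SMADs and other SMADs, Smad4 (amplitude 0.07, CT37.2), Ski (amplitude 0.10, CT21.8), Ppm1a (amplitude 0.08, CT32.3) and Zfyve9 (amplitude 0.07, CT36) passed. In the BMP arm, Bmp2 (amplitude 0.45, CT18.6), Bmp6 (amplitude 0.24, CT40), Acvr1 (amplitude 0.15, CT22.4), Acvrl1 (amplitude 0.10, CT18.6) and Bmpr1a (amplitude 0.15, CT31.8) passed. So did Bmpr1b (amplitude 0.25, CT33.4), Bmpr2 (amplitude 0.11, CT35.2), Eng (amplitude 0.27, CT19.9), Smad5 (amplitude 0.09, CT40.4) and Smad6 (amplitude 0.29, CT20.2). So did Id3 (amplitude 0.22, CT41.4), Nog (amplitude 0.25, CT19.4), Hjv (amplitude 0.09, CT24.5), Rgma (amplitude 0.15, CT21.1) and Rgmb (amplitude 0.15, CT24.5). Among the other atrophy and growth targets, Fbxo30 (amplitude 0.21, CT32.1), Cdkn1a (amplitude 0.47, CT20), Igf1 (amplitude 0.29, CT20.2) and Foxo3 (amplitude 0.18, CT38.3) passed.

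The deposited mm39 annotation places Acvr2a at chromosome 2, 48704121 to 48793281, and Acvr2b at chromosome 9, 119231184 to 119264061. Fst lies at chromosome 13, 114588826 to 114595487, and Fstl3 at chromosome 10, 79613106 to 79618464. Smad2 and Smad7 share chromosome 18, at 76374651 to 76444034 and 75500600 to 75529006. Exons of Acvr2a, Acvr2b, Acvr1b, Fst and Fstl3 overlap exons of genes on the opposite strand, by 3081 bases with Orc4 for Acvr2a, 1471 bases with 4930516B21Rik for Acvr2b and 1157 bases with Prss57 for Fstl3, and by 128 bases or fewer with each such gene for Acvr1b and Fst. Whether reads were counted by strand is not given in the sources used here, so reads of these pairs cannot be told apart. Mstn, Smad2, Smad3 and Smad7 had no such overlap.

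Levels of markers of other cell types were summed for each library, and the ranges of the arms overlapped. The summed level of 3 neutrophil markers had medians of 0.361 FPKM in WT control and 1.67 FPKM in WT KPC mice, and 0.253 and 1.04 FPKM in FoxP1SkmKO mice, with 1 FoxP1SkmKO KPC library at 15.8 FPKM. That library, at CT30, also had the second lowest Mstn level, 6.16 FPKM. The 4 tendon markers had medians of 15.5 FPKM in WT control, 7.58 in WT KPC, 9.65 in FoxP1SkmKO control and 7.03 in FoxP1SkmKO KPC mice, and the 7 fibro-adipogenic markers 50.4, 45.3, 48.8 and 44.0 FPKM. The 4 Schwann cell markers had medians of 14.1, 11.7, 12.8 and 9.16 FPKM in the same order. Their part in the results was not tested.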

How the data were processed

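Poly-A RNA of tibialis anterior muscle from 48 mice was sequenced. Per the study's methods the authors aligned reads with STAR and counted them with HTSeq, whereas the submitters' processing notes name HISAT2 2.0.5, DESeq2 1.20.0 and mm39, and which made the files was not settled. The deposited values are raw read counts per gene, in 12 tables of 4 libraries each, and FPKM computed by the authors for 56748 genes. The tables leave out genes with under 2 reads over their libraries, and 28541 counts of 1 were recovered from the deposited FPKM. Columns of the authors' own fold changes and p-values were not used.

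Counts were tested with edgeR 4.0.16 (R 4.3.3) by the quasi-likelihood test, with TMM scaling, filterByExpr (15637 genes), 24 groups in 1 fit and Benjamini-Hochberg adjustment over all genes. Contrasts were averaged over the 6 times or taken at each time. A 24 h sinusoid was fitted in edgeR to all arms, and to FPKM in each arm. DESeq2 1.42.0 was an alternative. The scripts were tested on simulated data. Same-numbered replicates mostly did not deviate together and were not paired. The named genes are the 9 members, listed pathway genes that passed, and the 3 genes most like each of the 4 members that passed the shared rhythm test. The members and lists were chosen with earlier results of these data known. P-values measure the spread between mice, with 2 per group, and the precision rests on 14480867 to 20787784 reads per library. The values of 1 listed gene, which is counted in the list totals, are not reported here.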

Additional observations from a re-analysis of the deposited data

Results flagged for a closer look

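The 24 h rhythm of Smad3 differed between KPC and control mice in FoxP1SkmKO mice at p = 0.0382, by a test of the difference itself on FPKM (n = 24). The adjusted p over all genes was 0.757, 5.09% of 31244 genes reached the same threshold, and 1 of the 9 genes did. On the 24 h cycle the fitted peak was at hour 21.5 in 12 control mice and 16.2 in 12 KPC mice, 5.3 h apart, and in WT mice the same test gave Smad3 p = 0.799 (n = 24).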

How the results depend on the processing

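Of 2350 alternative values, 2161 kept their direction and their side of the threshold or stayed close to the reported value. Where 1 library was left out, counts summed over comparisons kept the reported value of each comparison without that library. Such counts could move little, so this total overstates how stable the results are. With no filter on low counts, every gene with at least 1 read was tested, a larger set than the 15637. Shares of that set were not computed, so its counts do not compare directly with the others. The calls rose for KPC in WT to 1 member (Acvr2b) and 794 genes, and for KPC in FoxP1SkmKO to 1 (Smad3) and 527. They rose for the difference between genotypes to 104 genes. For FoxP1SkmKO in control mice they rose to 2 members (Mstn and Acvr2b) and 933 genes, and for FoxP1SkmKO in KPC mice to 470 genes. At single times they rose to 2120 genes in WT and to 2 members and 1678 genes in FoxP1SkmKO. For the genotype difference at single times they rose to 3 members and 915 genes.

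Leaving out 1 time changed the genes called for KPC in WT (280) to 138 without CT26, 118 without CT30 and 157 without CT34. For KPC in FoxP1SkmKO (67) it gave 3 without CT18, 130 and 1 member without CT22, 15 without CT30, 107 without CT34 and 21 without CT38. For FoxP1SkmKO in control mice (538) it gave 323 without CT18, 268 without CT38 and 1 member without CT26. For FoxP1SkmKO in KPC mice (50) it gave 20 without CT18, 138 without CT22, 0 without CT30, 27 without CT34 and 21 without CT38. The Mstn difference for KPC in FoxP1SkmKO turned to -0.044 without CT22, -0.0053 without CT34 and -0.051 without CT38.

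A fit of the compared arms alone gave 14 genes for KPC in FoxP1SkmKO, 1 member for FoxP1SkmKO in control mice, 13 genes for FoxP1SkmKO in KPC mice, and 480 and 81 genes at single times in WT and FoxP1SkmKO. DESeq2 gave 170 genes for KPC in FoxP1SkmKO, 1 member for FoxP1SkmKO in control mice, 117 genes for FoxP1SkmKO in KPC mice, 178 at single times in FoxP1SkmKO, and 1 member and 148 genes for the genotype difference at single times. With the trend on gene length removed, an alternative chosen after seeing the data, 412 genes passed at single times in WT and 17 for the genotype difference. With a mean FPKM of at least 1, 1571 genes passed the rhythm difference in place of 3091.

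Same-numbered replicates had correlated deviations over 0.1 in 0, 0, 0 and 1 of 6 pairs for the 4 pairs of arms, so no general pairing by number was seen. The highest r was 0.22, between WT KPC and FoxP1SkmKO KPC mice. The check compared mice of the same time only, and a shared batch was not tested. The replicate block gave 1 member for FoxP1SkmKO in control mice (Mstn) and 2 for the rhythm difference.

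Leaving out 1 library at a time, from the arms each comparison uses, gave 75 to 412 genes for KPC in WT, 17 to 228 for KPC in FoxP1SkmKO, 0 to 4 for the difference, 303 to 760 genes and 0 to 1 members for FoxP1SkmKO in control mice, and 17 to 198 genes for FoxP1SkmKO in KPC mice. At single times it gave 90 to 1366 genes and 0 to 1 members in WT and 1 to 233 genes in FoxP1SkmKO, and for the rhythm difference 0 to 2 members. The Mstn difference for KPC in FoxP1SkmKO ran from -0.058 to 0.094. The causes were not tested. Fst and Fstl3 rest on medians of 22 and 8 reads per library.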
